A study of Mus musculus with 20 samples.

Results

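The chemokine genes described here are the chemotactic ligands and receptors of the CC and CXC classes, measured in whole mouse spinal cord. A gene was taken as a member when a probe set of the array (a group of probes for 1 transcript) was annotated to that gene alone and its symbol began with Ccl, Cxcl, Ccr or Cxcr, followed by a number and at most 1 letter. This rule gave 47 of the 22180 genes measured: 19 CC ligands, 13 CXC ligands, 9 CC receptors and 6 CXC receptors. Where a gene had several such probe sets, the brightest over the 20 arrays was used. The spinal cords came from C57BL/6J mice aged 6 to 10 weeks, in 4 groups of 5 mice. These were Cx30GRko mice given dexamethasone, Cx30GRko mice given saline, control mice given dexamethasone and control mice given saline. In Cx30GRko mice Cre recombinase removes the glucocorticoid receptor gene in cells that express connexin 30, a gap junction protein of astrocytes. Cells without connexin 30 are meant to keep the receptor, which was not measured here by cell type. The arrays titled Tg were read as Cx30GRko and those titled wt as control; the strain label is the same for all of them. Dexamethasone (Dex), a synthetic agonist of the receptor, was injected intraperitoneally at 4 mg/kg, and tissue was collected after 4 h in all groups, saline included. Spinal cord was used because the study names it as the tissue with the highest rate of Cre recombination. Its question was which transcripts respond to activation of the glucocorticoid receptor in astrocytes. The labels name no immune stimulus in any group.

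Chemokines are small secreted proteins that draw leukocytes along a concentration gradient through receptors coupled to G proteins. They are classed by the spacing of their first cysteines, which are adjacent in CC ligands and separated by a single residue in CXC ligands. Some are inflammatory and are made on demand under control of NF-kB or interferons, such as Ccl2, Cxcl1 and Cxcl10; others, such as Cxcl12 and Cxcl14, are made constitutively and guide cells in development and in resting tissue. In the injured or inflamed spinal cord, astrocytes and microglia are known sources of Ccl2, Cxcl1 and Cxcl10. Glucocorticoids are known to repress many inflammatory chemokine genes in stimulated cells, where the receptor acts on NF-kB and raises inhibitors such as Nfkbia and the mRNA-destabilising protein Zfp36.

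All values are log2 signals, normalised between arrays by the authors; their precision is limited by 5 arrays per group. There were 2 sets of arrays that the labels do not mention, replicates 1 to 3 of each group (12 arrays) and replicates 4 and 5 (8 arrays), within which the deposited values had been centred. Values within each set are given beside most of the pooled differences. Cx30GRko Dex replicates 4 and 5 stood apart, with SDs over all probe sets of 1.95 and 1.81, against 1.66 to 1.71 in the other arrays of their set, and results are given without them where they matter. The glucocorticoid receptor gene, Nr3c1, averaged 6.59 ± 0.70 in Cx30GRko Dex and 6.19 ± 0.21 in Cx30GRko saline cords, against 6.22 ± 0.08 in control Dex and 6.21 ± 0.50 in control saline cords (SD, n = 5 each). No genotype difference in this gene passed the test under saline or under Dex (limma, adjusted p = 0.995 and 0.600), so in whole cord it does not check the genotype labels. Markers of the cells that make up the cord were above background for 8 of 8 astrocyte genes and 6 of 6 neuron genes.

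By chromosome, 14 of the 47 genes lie on chromosome 11, 11 on chromosome 5 and 8 on chromosome 9 in the RefSeq annotation of GRCm38.p6, which was used for names and gene order only. Some of them sit in runs of direct neighbours among protein-coding genes. The longest run holds 6 CC ligands in the order Ccl2, Ccl7, Ccl11, Ccl12, Ccl8 and Ccl1. Another holds 5 CC ligands in the order Ccl5, Ccl9, Ccl6, Ccl3 and Ccl4. A run of 4 CXC ligands has the order Cxcl3, Cxcl15, Cxcl1 and Cxcl2. Runs of 2 are Cxcr2 with Cxcr1, Ccl26 with Ccl24 and Ccr3 with Ccr2. Cxcl11 is annotated there as a transcribed pseudogene. RefSeq promoter windows of 300 bases (250 before and 50 after the start of the transcript) could be matched to 33 of the 47 genes, with 37 windows among them. A motif of the kind bound by NF-kB, GGANNTTCC, which reads the same on both strands, was present in 7 of these 37 windows (18.9%), against 4.26% of all 32851 windows. The 7 windows belonged to Ccl1, Ccl12, Ccr3, Cxcl1, Cxcl2, Cxcl3 and Cxcl10. The core of the motif bound by the glucocorticoid receptor, ACANNNTGT, also the same on both strands, was present in 2 windows (5.41%), those of Cxcl1 and Ccr3, against 6.85% of all windows.

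The windows of 3 inflammatory ligands that hold the NF-kB-like motif are printed 5′ to 3′ with that of Cxcl14, the ligand with the highest signal in these cords, which holds neither motif. Capitals mark every match to either motif. In the Cxcl1 window (GRCm38.p6, chr5:90890995-90891294, plus strand) the receptor-like match starts at position -85 and the NF-kB-like match at -70, counted so that the base before the transcript start is -1. The NF-kB-like match starts at -96 in the Cxcl2 window (chr5:90903649-90903948, plus strand) and at -158 in the Cxcl10 window (chr5:92348840-92349139, minus strand). The Cxcl14 window is chr13:56296502-56296801 on the minus strand. A match describes these letters only, and no binding was measured.
Cxcl1: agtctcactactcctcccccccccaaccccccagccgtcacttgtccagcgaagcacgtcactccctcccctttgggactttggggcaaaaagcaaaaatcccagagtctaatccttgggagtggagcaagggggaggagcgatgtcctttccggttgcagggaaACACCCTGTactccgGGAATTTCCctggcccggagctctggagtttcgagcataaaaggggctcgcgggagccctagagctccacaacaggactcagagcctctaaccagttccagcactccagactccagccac
Cxcl2: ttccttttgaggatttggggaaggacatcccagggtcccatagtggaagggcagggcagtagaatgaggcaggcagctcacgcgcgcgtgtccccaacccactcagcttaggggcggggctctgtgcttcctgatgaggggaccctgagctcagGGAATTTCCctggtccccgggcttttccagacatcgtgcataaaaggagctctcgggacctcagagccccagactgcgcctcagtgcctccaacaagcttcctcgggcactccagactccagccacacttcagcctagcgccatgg
Cxcl10: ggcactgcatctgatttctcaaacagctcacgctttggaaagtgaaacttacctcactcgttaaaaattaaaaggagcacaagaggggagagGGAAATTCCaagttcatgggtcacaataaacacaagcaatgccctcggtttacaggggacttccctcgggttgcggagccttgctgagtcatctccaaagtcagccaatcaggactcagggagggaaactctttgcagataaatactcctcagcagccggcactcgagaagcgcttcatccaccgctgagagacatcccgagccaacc
Cxcl14: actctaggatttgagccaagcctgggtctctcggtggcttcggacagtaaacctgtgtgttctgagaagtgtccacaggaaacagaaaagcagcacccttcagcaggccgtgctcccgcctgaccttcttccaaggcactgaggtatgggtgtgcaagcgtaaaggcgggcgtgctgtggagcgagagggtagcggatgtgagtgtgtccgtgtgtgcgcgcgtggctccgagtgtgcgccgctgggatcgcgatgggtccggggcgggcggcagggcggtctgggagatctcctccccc

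Most of the 47 genes had a mean signal under the level set for array background in the cord. Background was set at a log2 signal of 4.92, the 95th percentile of 1429 olfactory, vomeronasal and bitter taste receptor genes taken as largely silent in this tissue, whose median was 2.77. Of the 47 chemokine genes 11 (23.4%) had a mean over the 20 arrays above that level, against 45.4% of all genes. These were 7 of 19 CC ligands, 1 of 13 CXC ligands, 1 of 9 CC receptors and 2 of 6 CXC receptors. Between 7 and 14 members exceeded an array's own background level, only Cxcl14 and Ccr7 did so in all 20 arrays, and 27 members did so in none. Signals of different probe sets depend on their probes, so the order of members below is an order of signals and not of transcript amounts.

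**Figure D1:**
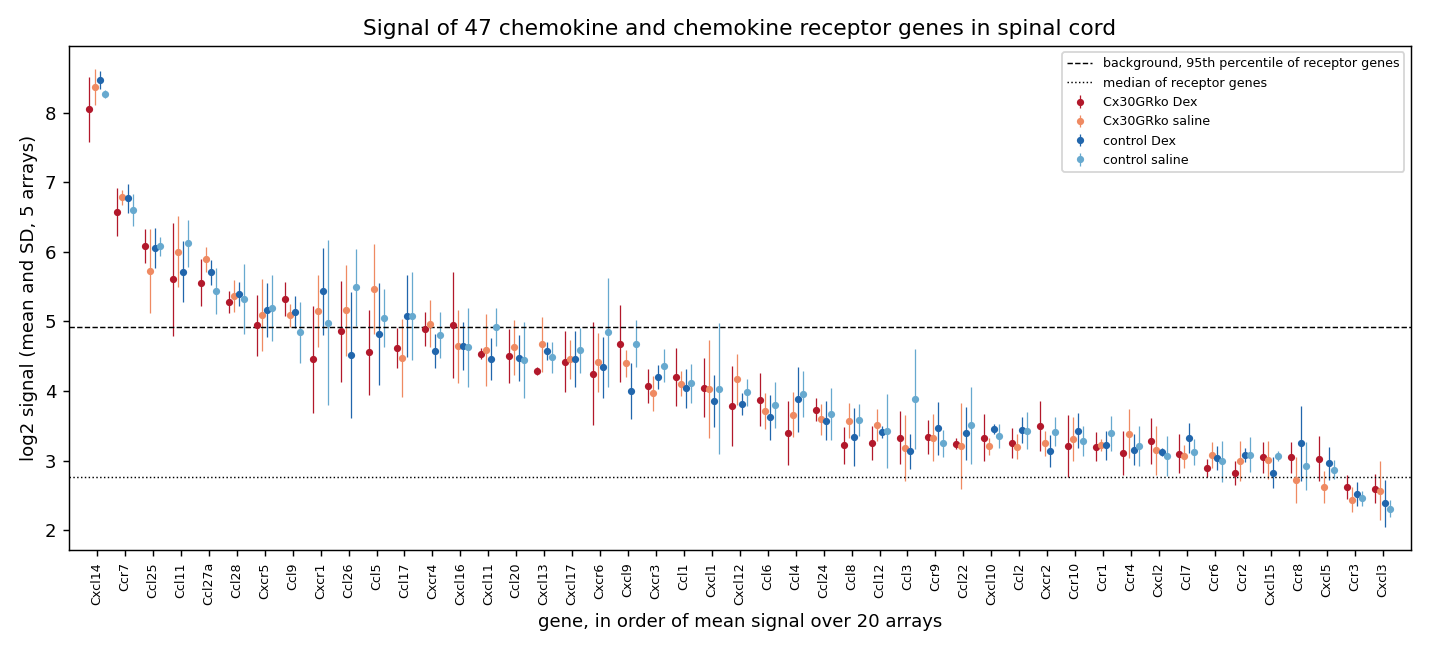
Mean log2 signal (y axis, bars are SD over 5 arrays) of the 47 genes, ordered along the x axis by their mean over the 20 arrays, with Cx30GRko Dex, Cx30GRko saline, control Dex and control saline left to right for each gene. The dashed line is the background level of 4.92 and the dotted line the median of the receptor genes, 2.77; Cxcl14 and Ccr7 lie clear of the dashed line in all 4 groups, while Cxcl3 and Ccr3 lie under the dotted line in all 4 groups.

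Cxcl14, a CXC ligand made constitutively in many epithelia and in brain, had the highest signal, 8.29 over the 20 arrays. It read 8.50, 8.04, 8.35, 8.07 and 7.29 in Cx30GRko Dex replicates 1 to 5 and 8.14, 8.17, 8.25, 8.57 and 8.73 in Cx30GRko saline cords. Control Dex cords gave 8.46, 8.40, 8.43, 8.69 and 8.36, and control saline cords 8.27, 8.22, 8.23, 8.36 and 8.24. The lowest of the 20 arrays was Cx30GRko Dex replicate 5, and the other 19 lay between 8.04 and 8.73.

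Ccr7, the receptor of Ccl19 and Ccl21 that leads dendritic cells and lymphocytes into lymph nodes, followed with 6.68. Its log2 signal was 6.76, 6.90, 6.50, 6.02 and 6.67 in Cx30GRko Dex and 6.86, 6.86, 6.59, 6.82 and 6.78 in Cx30GRko saline cords, against 6.46, 6.79, 6.88, 7.02 and 6.71 in control Dex and 6.75, 6.34, 6.48, 6.52 and 6.93 in control saline cords. The groups overlapped in every comparison. Its ligands Ccl19 and Ccl21 share probe sets with other symbols and fall outside the rule.

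Ccl25, the thymic and intestinal ligand of Ccr9, had a mean of 5.99 and exceeded background in 19 arrays. Its signal was 5.77, 6.12, 5.95, 6.14 and 6.43 in Cx30GRko Dex, 6.17, 6.03, 6.04, 4.69 and 5.70 in Cx30GRko saline, 5.64, 6.01, 6.03, 6.20 and 6.43 in control Dex and 6.04, 5.91, 6.14, 6.27 and 6.03 in control saline cords. Cx30GRko saline replicate 4 was the lowest of the 20 arrays, and the groups overlapped. The receptor Ccr9 itself averaged 3.34 and was above background in no array.

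Ccl11, an eotaxin that attracts eosinophils through Ccr3, averaged 5.86 (above background in 17 arrays), while Ccr3 had the second lowest signal of all members, 2.51. Ccl11 read 4.91, 5.88, 6.49, 4.60 and 6.16 in Cx30GRko Dex and 6.30, 6.35, 5.15, 5.92 and 6.30 in Cx30GRko saline cords. In control Dex cords it read 5.96, 5.81, 5.55, 5.06 and 6.22, and in control saline cords 5.65, 5.91, 6.41, 6.43 and 6.22. The SDs within groups were 0.81, 0.51, 0.44 and 0.34 in that order. The Dex difference was -0.40 ± 0.32 in Cx30GRko and -0.41 ± 0.32 in control cords (SE, limma, adjusted p = 0.671 and 0.959). The mean of both Dex effects was -0.40 ± 0.22 (adjusted p = 0.620). It was -0.20 over the first array set, -0.71 over the second and -0.33 without Cx30GRko Dex replicates 4 and 5.

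Ccl27a and Ccl28, both ligands of Ccr10 in skin and mucosa, averaged 5.65 (19 arrays above background) and 5.34 (17 arrays), and Ccr10 averaged 3.31. The remaining members above background lay close to it. Cxcr5, the B-cell receptor of Cxcl13, and Ccl9, a ligand of Ccr1, both averaged 5.10 and exceeded background in 12 arrays. Cxcr1, a receptor of neutrophils, averaged 5.01 (11 arrays). Ccl26, known in human as an eosinophil attractant, also averaged 5.01 (12 arrays), and Ccl5, which attracts T cells and monocytes, averaged 4.97 (10 arrays). Just under the level were Ccl17 at 4.81, Cxcr4 at 4.81 and Cxcl16 at 4.72, and the member with the lowest signal was Cxcl3 at 2.46.

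Members also differed in how much they varied between mice of a group. The median residual SD was 0.30 over the 47 members and 0.32 over all genes. It was largest for Cxcr1 (0.81), Ccl26 (0.72), Cxcl1 (0.65), Cxcr6 (0.62) and Ccl5 (0.61), and smallest for Ccr3 (0.16). Ccl5, Ccl26 and Cxcr1 are thus at once close to background and among the most variable.

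No chemokine or chemokine receptor gene passed the test for dexamethasone in either genotype. In Cx30GRko cords 0 of 47 members had an adjusted p under 0.05 (limma, Benjamini-Hochberg over all 22180 genes), against 0.0180% of all genes (4 genes), and 3 members had an unadjusted p under 0.05, against 9.73% of all genes. In control cords 0 of 47 passed, against 0.0135% of all genes (3 genes), and 4 had an unadjusted p under 0.05, against 5.16% of all genes. For the mean of both Dex effects 0 of 47 passed, against 0.149% of all genes (33 genes), and 4 had an unadjusted p under 0.05, against 8.64%. The median Dex difference of the members was -0.02 in Cx30GRko, -0.02 in control and -0.04 for the mean of both, beside 0.02, 0.01 and 0.02 over all genes. Of the 47 genes 23 were higher and 24 lower with Dex in Cx30GRko cords (48.9% higher, beside 53.7% of all genes). In control cords 20 were higher and 27 lower (42.6% higher, beside 52.3%). For the mean of both effects 16 were higher and 31 lower (34.0% higher, beside 54.1%). Of the 11 members above background 2 were higher in Cx30GRko and 6 in control cords (18.2% and 54.5%). Among all genes above background the shares higher were 61.8% and 54.4%. In Cx30GRko cords the median difference of the 11 members was -0.05 within replicates 1 to 3 and -0.73 within replicates 4 and 5. Over all genes above background it was -0.005 and 0.22. Replicates 4 and 5 include the Cx30GRko Dex arrays that stood apart.

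The intervals bound what could have been missed. The 95% confidence interval of the Dex difference lay within 1 log2 unit on either side of 0 for 43 of 47 members in Cx30GRko and 41 of 47 in control cords. The exceptions in Cx30GRko cords were Ccl5, Ccl11, Ccl26 and Cxcr1, all among the 11 above background, and in control cords Ccl3, Ccl11, Ccl26, Cxcl9, Cxcr1 and Cxcr6. An adjusted p over the threshold does not show that the other members had no difference, and for probe sets under background a difference in transcript can be compressed.

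**Figure D2:**
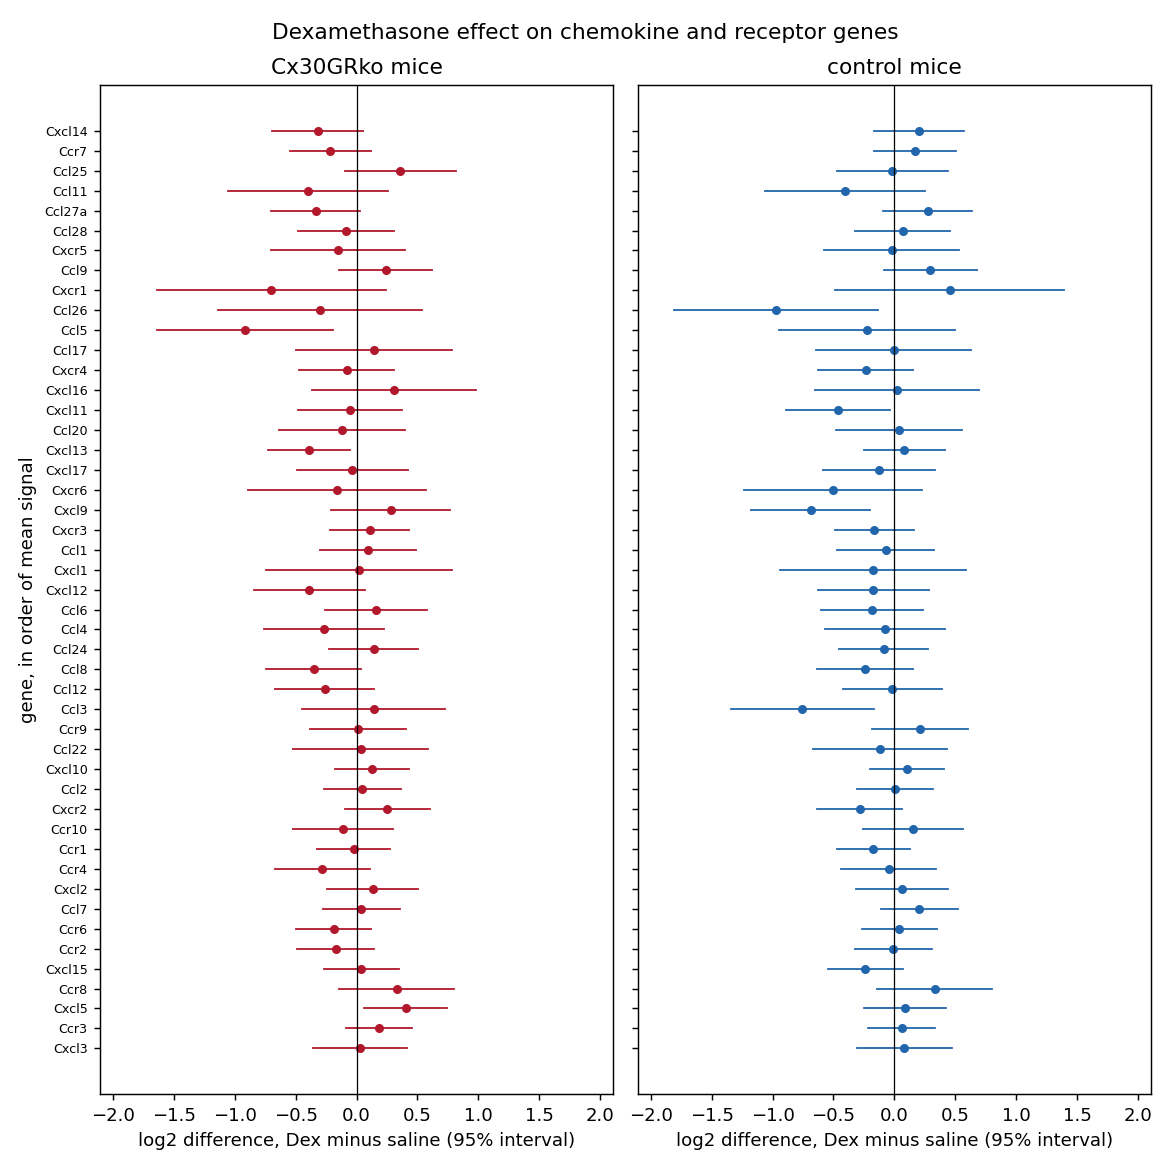
Dex minus saline difference in log2 signal (x axis, points, with 95% confidence intervals as bars) for the 47 genes (y axis, ordered by mean signal) in Cx30GRko mice on the left and control mice on the right, 5 arrays per group. Nearly all intervals cross 0; the points run from -0.92 (Ccl5) to 0.40 (Cxcl5) in Cx30GRko and from -0.97 (Ccl26) to 0.45 (Cxcr1) in control mice.

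The smallest p in Cx30GRko cords belonged to Ccl5. It read 5.12, 4.85, 5.01, 3.82 and 3.96 with Dex, against 5.03, 4.77, 5.37, 6.41 and 5.77 with saline. The low Dex arrays and the high saline arrays are all replicates 4 and 5. The difference was -0.92 ± 0.35 (SE, limma, adjusted p = 0.483), made up of -0.06 within replicates 1 to 3 and -2.20 within replicates 4 and 5, and it was -0.47 without Cx30GRko Dex replicates 4 and 5. In control cords Ccl5 read 4.81, 4.79, 5.17, 5.67 and 3.68 with Dex, against 4.77, 4.95, 5.05, 4.73 and 5.75 with saline, a difference of -0.23 ± 0.35. The mean of both Dex effects was -0.57 ± 0.25 (adjusted p = 0.552), with -0.03 over the first array set, -1.38 over the second and -0.35 without Cx30GRko Dex replicates 4 and 5.

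Cxcl5, a neutrophil attractant that signals through Cxcr2, came next in Cx30GRko cords although its signal lay close to the median of the silent receptor genes. It read 3.05, 2.87, 3.20, 2.58 and 3.43 with Dex, against 2.47, 2.48, 2.57, 3.02 and 2.58 with saline, a difference of 0.40 ± 0.16 (SE, adjusted p = 0.483) that was 0.53 over the first array set and 0.21 over the second. The groups overlapped through replicate 4 of each. Cxcl13, the B-cell attractant that binds Cxcr5, read 4.25, 4.37, 4.28, 4.22 and 4.29 with Dex in Cx30GRko cords, against 4.53, 4.51, 4.85, 5.25 and 4.21 with saline, a difference of -0.39 ± 0.16 (adjusted p = 0.483). The 5 Dex arrays lay between 4.22 and 4.37, and only saline replicate 5 lay below them. The first array set gave -0.33 and the second -0.48, and the pooled difference was -0.24 without Cx30GRko saline replicate 4.

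In control cords the smallest p belonged to Cxcl9, an interferon-induced ligand of Cxcr3. It read 4.37, 4.06, 4.19, 4.05 and 3.31 with Dex, against 4.62, 4.33, 4.84, 5.17 and 4.44 with saline, a difference of -0.68 ± 0.24 (SE, limma, adjusted p = 0.757). Replicates 1 to 3 gave -0.39 and replicates 4 and 5 gave -1.13, and the groups overlapped narrowly. In Cx30GRko cords Cxcl9 read 4.65, 4.33, 4.32, 4.46 and 5.65 with Dex, against 4.66, 4.51, 4.39, 4.19 and 4.25 with saline, where the highest value of all 20 arrays was Dex replicate 5.

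Ccl3, a ligand of Ccr1 that macrophages and microglia release, was the only member whose control Dex and control saline arrays did not overlap (1 of 47 members, against 1.24% of all genes). It read 3.19, 3.19, 3.23, 2.71 and 3.36 with Dex, against 3.41, 3.50, 3.42, 5.10 and 4.01 with saline in control cords. All of these were under the background level of their own array, and the difference of -0.75 ± 0.28 (SE, adjusted p = 0.831) was -0.24 within replicates 1 to 3 and -1.52 within replicates 4 and 5. Without control saline replicate 4 it was -0.45. In Cx30GRko cords no member separated Dex from saline (0 of 47, against 1.53% of all genes). Ccl3 there read 3.76, 3.15, 3.18, 3.68 and 2.86 with Dex, against 3.60, 3.41, 3.58, 2.72 and 2.63 with saline, a difference of 0.14 ± 0.28.

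Ccl26 gave the largest Dex difference in control cords, -0.97 ± 0.40 (SE, adjusted p = 0.901). It read 4.95, 5.45, 4.86, 4.26 and 3.09 with Dex, against 5.21, 4.80, 5.37, 5.81 and 6.24 with saline in control cords, and the difference was -0.61 without control Dex replicate 5. In Cx30GRko cords it read 4.96, 5.17, 5.10, 3.60 and 5.46 with Dex, against 4.66, 5.04, 4.50, 6.09 and 5.49 with saline. In both genotypes the spread came from replicates 4 and 5: the mean of both Dex effects, -0.63 ± 0.29 (adjusted p = 0.567), was 0.15 within replicates 1 to 3 and -1.81 within replicates 4 and 5. Ccl8, a monocyte attractant, had a mean Dex effect of -0.30 ± 0.13 (adjusted p = 0.567), with -0.15 over the first array set and -0.52 over the second, at signals of 2.97 to 3.59 with Dex and 3.19 to 3.84 with saline in Cx30GRko cords and of 2.67 to 3.82 with Dex and 3.37 to 3.95 with saline in control cords.

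**Figure D3:**
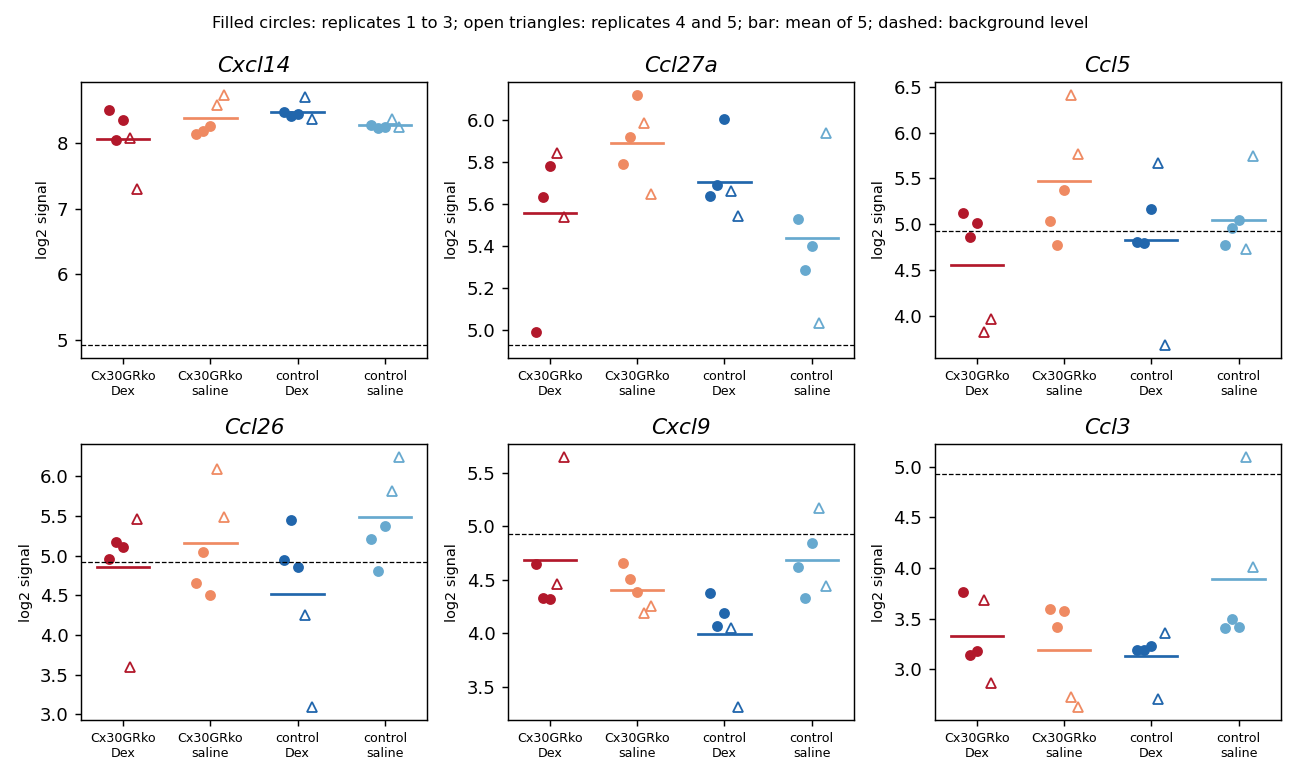
Log2 signal (y axis) of 6 genes in every array of the 4 groups (x axis), with filled circles for replicates 1 to 3, open triangles for replicates 4 and 5, a bar at the mean of 5 and a dashed line at the background level of 4.92. For Ccl5 and Ccl26 the triangles lie farther apart than the circles, and for Ccl3 the 5 control Dex arrays lie under the 5 control saline arrays.

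Whether the Dex effect differed between genotypes was asked by the interaction, the Dex effect in Cx30GRko minus that in control cords. It passed for 0 of 47 members and for 0% of all genes (limma, adjusted p under 0.05), with 4 members at an unadjusted p under 0.05, against 5.65% of all genes. The median was 0.03 over the members and 0.02 over all genes. The interval lay within 1 log2 unit of 0 for 33 of the 47 members, so this comparison is the least precise. Its smallest p belonged to Cxcl9, with an interaction of 0.97 ± 0.33 (SE, adjusted p = 0.846), with 0.30 from replicates 1 to 3 alone, 1.96 from replicates 4 and 5 alone and 0.72 without Cx30GRko Dex replicates 4 and 5. The neutrophil receptor Cxcr2 gave 0.54 ± 0.24 (adjusted p = 0.846) at signals near 3, with 0.46 over the first array set and 0.65 over the second.

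Ccl27a had the second smallest p and, unlike Cxcl9 and Cxcr2, was above background. Its log2 signal was 4.99, 5.63, 5.78, 5.85 and 5.54 in Cx30GRko Dex and 5.79, 5.92, 6.12, 5.99 and 5.65 in Cx30GRko saline cords. Control Dex cords gave 5.64, 5.69, 6.01, 5.66 and 5.54 and control saline cords 5.53, 5.28, 5.40, 5.03 and 5.94. The Dex difference was -0.34 ± 0.18 in Cx30GRko and 0.27 ± 0.18 in control cords, and the interaction was -0.61 ± 0.25 (SE, adjusted p = 0.846). The first array set gave an interaction of -0.85 and the second -0.24, and the Dex difference in Cx30GRko cords was -0.19 without Dex replicate 1. This gene has near-identical copies in the mouse genome whose signals on the array cannot be told apart. A second probe set annotated to Ccl27a, with a mean of 5.24, gave an interaction of -1.16 from its group means, in the same direction. That probe set was not in the main fit, so no SE is given. It correlated with the first at 0.50 over the 20 arrays.

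Without Dex the genotypes did not differ in any member past the threshold. Cx30GRko saline against control saline cords gave 0 of 47 members and 0% of all genes called (limma), with 3 members at an unadjusted p under 0.05, against 5.25% of all genes. No member separated the groups (0 of 47, against 0.938% of all genes). Ccl27a had the smallest p, with means of 5.89 ± 0.18 in Cx30GRko saline and 5.44 ± 0.33 in control saline cords (SD, n = 5 each) and a difference of 0.46 ± 0.18 (SE, adjusted p = 0.914), 0.54 over the first array set and 0.33 over the second. On its second probe set the group means differed by 1.13, again without an SE.

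Cxcr3, the receptor of Cxcl9 and Cxcl10 on activated T cells, read 3.81, 4.20, 4.08, 4.12 and 3.61 in Cx30GRko saline cords, against 4.27, 4.10, 4.54, 4.69 and 4.24 in control saline cords, a difference of -0.40 ± 0.16 (SE, adjusted p = 0.914), -0.27 over the first array set and -0.60 over the second. All of these are under background. Ccl3 gave -0.70 ± 0.28 (adjusted p = 0.914), but 0.09 within replicates 1 to 3 and -1.88 within replicates 4 and 5, and -0.40 without control saline replicate 4.

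Under Dex the genotypes likewise differed in no member past the threshold. Cx30GRko Dex against control Dex cords gave 0 of 47 members and 0% of all genes called (limma), with 4 members at an unadjusted p under 0.05, against 11.2% of all genes. The median difference was -0.09 over the members and 0.01 over all genes. Within replicates 1 to 3 it was -0.014 over the members and -0.007 over all genes. Within replicates 4 and 5 it was -0.011 and 0.04. Cxcl9 had the smallest p, with a difference of 0.68 ± 0.24 (SE, adjusted p = 0.423) that was 0.22 over the first array set, 1.37 over the second and 0.44 without Cx30GRko Dex replicates 4 and 5. Cxcl14 followed with means of 8.05 ± 0.47 in Cx30GRko Dex and 8.47 ± 0.13 in control Dex cords (SD, n = 5 each). Its difference of -0.42 ± 0.18 (SE, adjusted p = 0.428) came to -0.13 over the first array set, -0.84 over the second and -0.17 without the pair of arrays that stood apart.

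Cxcr2 read 3.38, 3.39, 3.54, 3.11 and 4.07 in Cx30GRko Dex cords, against 2.96, 3.44, 2.87, 3.13 and 3.27 in control Dex cords, a difference of 0.37 ± 0.17 (SE, adjusted p = 0.439) under background. It was 0.35 over the first array set and 0.39 over the second, but 0.22 without Cx30GRko Dex replicate 5, an array that stood apart. Cxcr1 gave -0.98 ± 0.45 (adjusted p = 0.439), of which replicates 4 and 5 gave -2.00 and replicates 1 to 3 gave -0.31. Only Cxcl13 separated these groups (1 of 47, against 1.28% of all genes): its Cx30GRko Dex arrays lay between 4.22 and 4.37 and its control Dex arrays between 4.39 and 4.74, all under background, with a difference of -0.29 ± 0.16 (adjusted p = 0.500), -0.34 over the first array set and -0.21 over the second.

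The ligand and receptor pairs best known from neuroinflammation sat low in all 4 groups. Ccl2, which draws monocytes through Ccr2, read 3.30, 3.48, 2.98, 3.41 and 3.06 in Cx30GRko Dex and 3.00, 3.23, 3.08, 3.23 and 3.48 in Cx30GRko saline cords, against 3.31, 3.75, 3.30, 3.44 and 3.37 in control Dex and 3.23, 3.50, 3.79, 3.12 and 3.52 in control saline cords. Its Dex difference was 0.05 ± 0.15 in Cx30GRko and 0.00 ± 0.15 in control cords (SE, adjusted p = 0.938 and 0.999), with intervals of -0.27 to 0.36 and -0.31 to 0.32. Over the first and second array sets it was 0.15 and -0.11 in Cx30GRko and -0.05 and 0.08 in control cords. All 4 groups overlapped and every array lay under its background level.

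Ccr2 itself read 2.73, 2.71, 3.13, 2.75 and 2.79 in Cx30GRko Dex and 3.31, 3.04, 2.57, 3.16 and 2.88 in Cx30GRko saline cords. Control Dex cords gave 2.91, 3.16, 3.13, 3.11 and 3.07 and control saline cords 3.01, 2.92, 3.32, 2.80 and 3.38. These values are close to the median of the silent receptor genes, and the Dex difference was -0.17 ± 0.15 in Cx30GRko and -0.01 ± 0.15 in control cords (SE, adjusted p = 0.709 and 0.999). With an array left out it ran from -0.28 to -0.09 in Cx30GRko and from -0.08 to 0.06 in control cords.

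Cxcl1, a neutrophil attractant acting on Cxcr2, was among the most variable members. It read 3.47, 4.61, 4.08, 3.85 and 4.22 in Cx30GRko Dex and 4.66, 3.73, 4.79, 3.07 and 3.89 in Cx30GRko saline cords, against 4.21, 3.66, 3.53, 4.32 and 3.57 in control Dex and 3.78, 4.36, 3.02, 5.47 and 3.54 in control saline cords. Only control saline replicate 4 exceeded its background. The Dex difference was 0.02 ± 0.37 in Cx30GRko and -0.18 ± 0.37 in control cords (SE, adjusted p = 0.990 in both), with intervals of -0.74 to 0.78 and -0.94 to 0.58. The first array set gave -0.34 and the second 0.56 in Cx30GRko, and 0.08 and -0.56 in control cords, where the difference was 0.18 without saline replicate 4.

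Cxcl10, the interferon-induced ligand of Cxcr3, was among the steadiest, with 3.49, 2.91, 3.79, 3.14 and 3.32 in Cx30GRko Dex and 3.30, 3.17, 3.00, 3.30 and 3.25 in Cx30GRko saline cords. Control Dex cords gave 3.48, 3.42, 3.48, 3.54 and 3.34 and control saline cords 3.37, 3.11, 3.50, 3.54 and 3.25. The groups overlapped, and the Dex difference was 0.13 ± 0.15 in Cx30GRko and 0.10 ± 0.15 in control cords (SE, adjusted p = 0.786 and 0.983). Over the first and second array sets it was 0.24 and -0.04 in Cx30GRko and 0.14 and 0.05 in control cords, and in Cx30GRko cords it ran from 0.014 to 0.23 with an array left out. The windows printed above for Cxcl1 and Cxcl10 thus belong to genes with no call and no signal over background in most arrays.

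Cxcl12 and its receptor Cxcr4, which hold progenitors and leukocytes in their niches, were just under or well under background. Cxcl12 read 2.76, 3.95, 4.02, 4.10 and 4.09 in Cx30GRko Dex and 4.76, 4.21, 4.13, 3.95 and 3.80 in Cx30GRko saline cords, against 3.97, 3.55, 3.78, 3.90 and 3.85 in control Dex and 4.13, 3.75, 4.22, 3.87 and 3.93 in control saline cords. Cx30GRko Dex replicate 1 was the lowest of the 20 arrays, outside the 3.95 to 4.10 of the others of its group. The difference of -0.39 ± 0.22 in Cx30GRko cords (SE, adjusted p = 0.551) came to -0.79 over the first array set and 0.22 over the second. It was -0.13 without Cx30GRko Dex replicate 1, -0.24 without Cx30GRko saline replicate 1 and -0.59 without Cx30GRko Dex replicates 4 and 5. In control cords it was -0.17 ± 0.22 (adjusted p = 0.979).

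Cxcr4 read 5.18, 4.70, 5.13, 4.74 and 4.69 in Cx30GRko Dex and 5.42, 4.68, 4.57, 5.07 and 5.11 in Cx30GRko saline cords. Control Dex cords gave 4.29, 4.70, 4.69, 4.84 and 4.34 and control saline cords 4.92, 4.50, 4.95, 4.45 and 5.23. Of the 20 arrays 5 were above their own background level. The Dex difference was -0.08 ± 0.19 in Cx30GRko and -0.24 ± 0.19 in control cords (SE, adjusted p = 0.906 and 0.959), and the groups overlapped in every comparison. The first array set gave 0.11 and the second -0.37 in Cx30GRko, and -0.23 and -0.25 in control cords, and with an array left out the difference ran from -0.18 to 0.03 in Cx30GRko and from -0.33 to -0.13 in control cords.

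Across the family the larger Dex differences were those of the smaller array set. Within replicates 1 to 3 the Dex differences of the 47 genes ran from -0.79 to 0.53 in Cx30GRko and from -0.51 to 0.43 in control cords, while within replicates 4 and 5 they ran from -2.20 to 1.10 and from -2.36 to 1.38. The sign was the same in both sets for 20 of 47 members in Cx30GRko and 26 of 47 in control cords, beside 49.2% and 50.2% of all genes. The set of 8 arrays has fewer arrays per group and a wider spread, with a median residual SD of 0.36 over the members, against 0.25 in the set of 12. Over all genes these medians were 0.37 and 0.21, so the wider spread was not particular to the family.

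**Figure D4:**
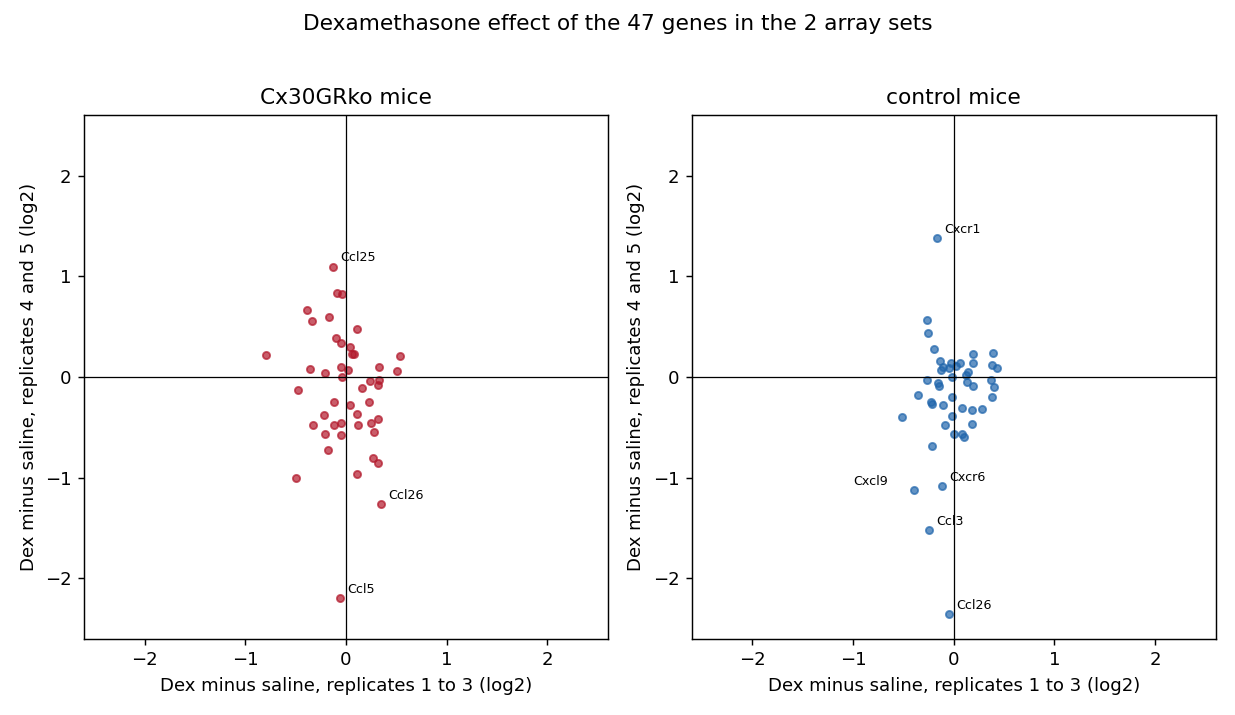
Dex minus saline difference in log2 signal of each of the 47 genes within replicates 1 to 3 (x axis) and within replicates 4 and 5 (y axis), for Cx30GRko mice on the left and control mice on the right, both axes on the same scale. The points spread along the y axis, down to -2.20 for Ccl5 in Cx30GRko and -2.36 for Ccl26 in control mice, and little along the x axis.

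A list of 37 other genes of chemokine signalling and of its control by glucocorticoids was followed beside the family, and 34 were measured. Of these 17 were above background, among them the neuronal chemokine Cx3cl1 (6.57) and its microglial receptor Cx3cr1 (5.95), and the scavenger receptors Ackr1 (6.49) and Ackr3 (5.82). In 5 of the 6 comparisons 0 of 34 passed (limma). At an unadjusted p under 0.05 were 5 of 34 for Dex in Cx30GRko (9.73% of all genes) and 5 for Dex in control (5.16%). The mean of both Dex effects had 8 of 34 (8.64% of all genes). The interaction had 3 (5.65%), genotype under saline 2 (5.25%) and genotype under Dex 2 (11.2%). For the mean of both Dex effects 1 of 34 rose and 0 fell, against 0.149% of all genes called in either direction: Zfp36, which destabilises cytokine mRNAs, rose by 1.01 ± 0.18 on the log2 scale (SE, limma, adjusted p = 0.0115), by 1.44 over the first array set and 0.37 over the second, from a probe set below background (mean 3.69). Nfkbia, the NF-kB inhibitor, gave 0.79 ± 0.18 (adjusted p = 0.107), with 0.82 over the first array set and 0.74 over the second. Tsc22d3, a classic glucocorticoid-induced gene, gave 0.33 ± 0.09 (adjusted p = 0.326), with 0.44 and 0.17. Its probe set too was below background (mean 4.46). Over the list 25 genes were higher and 9 lower for the mean Dex effect (73.5% higher, beside 54.1% of all genes). Among the lower ones Dpp4 gave -0.31 ± 0.14 (SE, limma, adjusted p = 0.574), with -0.33 and -0.27 over the array sets. Tnfaip3 gave -0.15 ± 0.10 (adjusted p = 0.669), with -0.11 and -0.19. Both were below background. The cytokine genes Tnf, Il1b and Il6, which induce inflammatory chemokines, averaged 3.41, 3.15 and 2.91 and passed in no comparison.

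Whole cord was measured, so fewer cells of a type and less RNA per cell cannot be told apart for any of these genes. Of the cells that respond to or release chemokines, microglia had 5 of 9 measured markers above background, neutrophils and blood monocytes 2 of 9, lymphocytes 1 of 9 and endothelial cells 4 of 8. Markers of meningeal fibroblasts (4 of 7 above background), a tissue that can adhere to the cord, averaged 5.86 in Cx30GRko Dex and 5.27 in Cx30GRko saline cords, against 5.25 in control Dex and 5.98 in control saline cords. Schwann cells were represented by 2 measured markers, of which 1 was above background, and averaged 6.17, 5.88, 5.83 and 6.78 in the same order of groups. Astrocyte markers averaged 7.57, 7.20, 7.22 and 7.18 in that order, and neuron markers 8.37, 8.09, 8.17 and 7.86. None of the 58 markers of these 8 cell types passed the test in any of the 6 comparisons (limma). At an unadjusted p under 0.05 were 4 markers for Dex in Cx30GRko (9.73% of all genes), 7 for Dex in control (5.16%), 6 for the mean Dex effect (8.64%), 7 for the interaction (5.65%), 8 for genotype under saline (5.25%) and 9 for genotype under Dex (11.2%). Their part in the differences of the chemokine genes was not tested.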

How the data were processed

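RNA of 20 mouse spinal cords was measured on Affymetrix whole-transcript arrays, 5 per group. The authors deposited log2 values per probe set for all 20 arrays. The submitters' processing notes name oligo, while its version, the normalization method and the genome build are not given in the sources used here. Those log2 values were used as deposited. All arrays had the same mean of 4.64, and for every probe set the means over replicates 1 to 3 and over replicates 4 and 5 were equal to within 4.5e-09, so the values had been centred within these 2 sets.

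GEO's platform annotation pairs 23521 of the 41345 probe sets with 1 gene symbol, 1814 with several and 16010 with none. The brightest probe set of each of 22180 genes was tested, without a filter on dim signals. Group means over the 20 arrays were fitted with limma 3.58.1 in R 4.3.3 (no block, 16 residual degrees of freedom). P-values were two-sided and adjusted by Benjamini-Hochberg over all genes within each of 6 comparisons, with a threshold of 0.05 for a call. The procedure was tested on simulated data. The members, gene lists and tests were chosen with earlier results of these data known. Every member above background was named, with the 3 members of smallest p in each comparison and Ccl2, Cxcl1, Cxcl10, Cxcl12, Cxcr4 and Ccr2; 1 further gene of that list was not analysed here. Genes outside that rule (Ccl17, Cxcl16, Cxcr6, Ccr3, Ccr9, Ccr10, Cxcl3) were named after their values were seen. The lists were chemokine signalling genes and markers of 8 cell types. Deviations of same-numbered replicates from their group means had correlations of -0.31 to 0.04 over all genes (30 pairs, mean -0.097). Different numbers of the same array set averaged -0.114, close to that value. Centring within sets lowers both means, so their sign alone cannot decide on pairing. The numbers were not used as pairs. Alternatives were a block for replicate number or array set, each array set alone, array weights, a second quantile normalization, a filter on dim genes, other samples in the fit, all probe sets, another threshold, other background levels and each array left out. Figures were drawn with matplotlib 3.10.9.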

Additional observations from a re-analysis of the deposited data

Results flagged for a closer look

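In 6 of the 96 groups of 5 arrays examined (24 named members in 4 groups) the highest or lowest array was set apart from the others by more than Dixon's 95% critical value of 0.71 of the group's range; chance gives about 1 in 20 groups. Ccl26 read 3.60 in Cx30GRko Dex replicate 4, against 4.96 to 5.46 in the other arrays of that group. Cxcl9 read 5.65 in Cx30GRko Dex replicate 5, with the others at 4.32 to 4.65. Both are arrays that stood apart over all probe sets. Cxcl12 read 2.76 in Cx30GRko Dex replicate 1 (others 3.95 to 4.10), and Ccr2 read 3.13 in Cx30GRko Dex replicate 3 (others 2.71 to 2.79). Cxcl5 read 3.02 in Cx30GRko saline replicate 4 (others 2.47 to 2.58), and Ccl3 read 2.71 in control Dex replicate 4 (others 3.19 to 3.36). Of these genes only Ccl26 has a mean above background.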

How the results depend on the processing

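No member passed in any comparison under any of the 31 alternatives run for each (20 of them leaving out an array); the smallest adjusted p of a member was 0.231, for the mean Dex effect with array weights. The count of members above background was 10 or 11 with an array left out, but 21 with the 90th percentile of the receptor genes as the level (4.15), 2 with the 99th (6.26) and 1 with the 95th percentile of probe sets without a symbol (7.50). Of the 547 recomputed values of the 18 smallest-p effects, 545 kept their sign uncalled. The exceptions were, in replicates 1 to 3 alone, the mean Dex effect of Ccl26 (0.15) and the genotype difference of Ccl3 under saline (0.086); the cause was not tested. Testing only genes above background gives no value for members below it. With the replicate number as a block, 0 members were called. Same-numbered pairs averaged a correlation of -0.097, against -0.114 for different numbers of the same array set, and 0 of 30 exceeded 0.1. Centring within sets lowers these correlations, so that cutoff cannot decide on the block. Among all genes the mean Dex effect called 33, against 15 with the replicate block, 101 in replicates 1 to 3, 0 in replicates 4 and 5, 129 with array weights and 18 to 35 with an array left out. Dex in Cx30GRko called 4 (0 to 18 over the alternatives) and Dex in control 3 (0 to 58). Signal close to background limits what a change in most members could show, and no detection calls were used here.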
